A study of Ramazzottius varieornatus with 48 samples.

Results

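The libraries described here are the 3 of the Short time course collected 6 h after UVC exposure and the 3 of its non-exposed animals, 6 of the 48 libraries of the series, compared across the 12088 of 14532 transcripts whose mean over the series was at least 1 TPM. Both groups were whole bodies of the YOKOZUNA-1 strain of Ramazzottius varieornatus, a limno-terrestrial tardigrade that survives near-complete drying, with 30 animals pooled in each library. The animals at 6 h had been irradiated on a gel after the excess water was removed, at an average of 0.54 mW/cm2 by the sample labels (the study's methods give the Short course a slightly higher intensity). They were then kept in water at 22 °C until sampling. The study's methods describe darkness for culture and for the movement assay, and give no light condition for the sequenced animals after exposure. Non-exposed animals were taken at 0 h and at no later time. Exposure, the handling it needs and 6 h of incubation cannot be told apart. The labels give age for neither group. By the study's methods the replicates were biological, of animals taken from culture plates, and the 3 sequenced for each condition were picked by RNA integrity.

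UVC is absorbed by DNA and joins neighbouring pyrimidines into dimers, which block polymerases. In the dark a photolyase, which needs light to split the dimers, cannot act, and the lesions are left to excision repair and to the pathways that restart stalled forks or rejoin broken ends. Radiation also raises reactive oxygen species, which damage proteins and mitochondria. Damaged proteins are marked with ubiquitin and sent to the proteasome or, when aggregated, to autophagy through receptors such as sequestosome-1.

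TPM values are read shares corrected for transcript length. Every library has the same total, so the table keeps no sequencing depth. Across transcripts the mean Spearman correlation was 0.876 among the 6 h libraries, 0.863 among the non-exposed libraries and 0.848 between the groups. With the Short libraries of other times after exposure, the 6 h libraries had means from 0.845 (4 h) to 0.899 (12 h). The means with 9 h (0.889) and 12 h were above that among the 6 h libraries themselves. Of 7238 transcripts with a mean of at least 20 TPM over the series, 21 to 92 were listed at 0 in the 6 h libraries and 18 to 145 in the non-exposed libraries, the most in non-exposed replicate 2. The samples are whole animals, and fewer cells of a type and less RNA per cell cannot be told apart. Summed over 12 gut enzyme transcripts the level was 5938 to 7413 TPM at 6 h and 4157 to 4610 TPM in non-exposed animals, without overlap, while 0 of the 12 passed both thresholds given below. Summed over 7 muscle transcripts it was 601 to 846 TPM at 6 h and 726 to 1162 TPM in non-exposed animals. Vitellogenin, the yolk protein, had 1214 to 1765 TPM at 6 h and 1031 to 1682 TPM in non-exposed animals. None of these 20 marker transcripts had a group mean of 0. The part that gut content plays in the changes below was not tested.

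At 6 h, 170 transcripts were higher and 131 were lower than in non-exposed animals. The thresholds were 0.05 for the adjusted p (limma on log2(TPM + 1), Benjamini-Hochberg) and 1 for the size of the log2 fold change. The higher and the lower transcripts were 1.41% and 1.08% of those tested, and transcripts past both thresholds are called DEGs (differentially expressed genes) below. The scale adds 1 to each TPM and understates the change of low transcripts. Over all transcripts the log2 fold change had a median of -0.02. All 3 libraries at 6 h lay above all 3 non-exposed libraries for 165 of the 170 transcripts that rose, and below them for 131 of the 131 that fell. Over all transcripts tested these shares were 8.42% above and 9.93% below. The median log2 fold change was 1.53 among transcripts that rose and -1.45 among those that fell. The transcripts that rose had a median level of 128 TPM at 6 h and 45.1 TPM in non-exposed animals. Those that fell had 44.3 TPM at 6 h and 112 TPM in non-exposed animals. The median over all transcripts was 26.7 TPM at 6 h and 27.1 TPM in non-exposed animals.

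The calls borrow the spread of all 27 Short libraries. With only the 6 libraries in the fit, 19 transcripts were called, of which 17 were among the 301. An unadjusted p under 0.05 was reached by 1591. Of the 17, 11 rose (XRCC5 g13857, peptide N-glycanase g12708, succinate dehydrogenase iron-sulfur subunit g10987, LSm4 g10799, thioredoxin domain-containing protein g11396, and g311, g730, g3308, g6183, g7371 and g10215). The other 6 fell (g873, g2856, g6687, g8032, g8373 and g13444). With each library left out in turn the count was 179 to 261, lowest without 6 h replicate 1. Of the 301 DEGs, 110 passed both thresholds under each of 16 other settings in which they were tested, 72 of them higher and 38 lower. These 16 include neither sums over isoforms nor the fit of the 6 libraries alone.

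**Figure D1:**
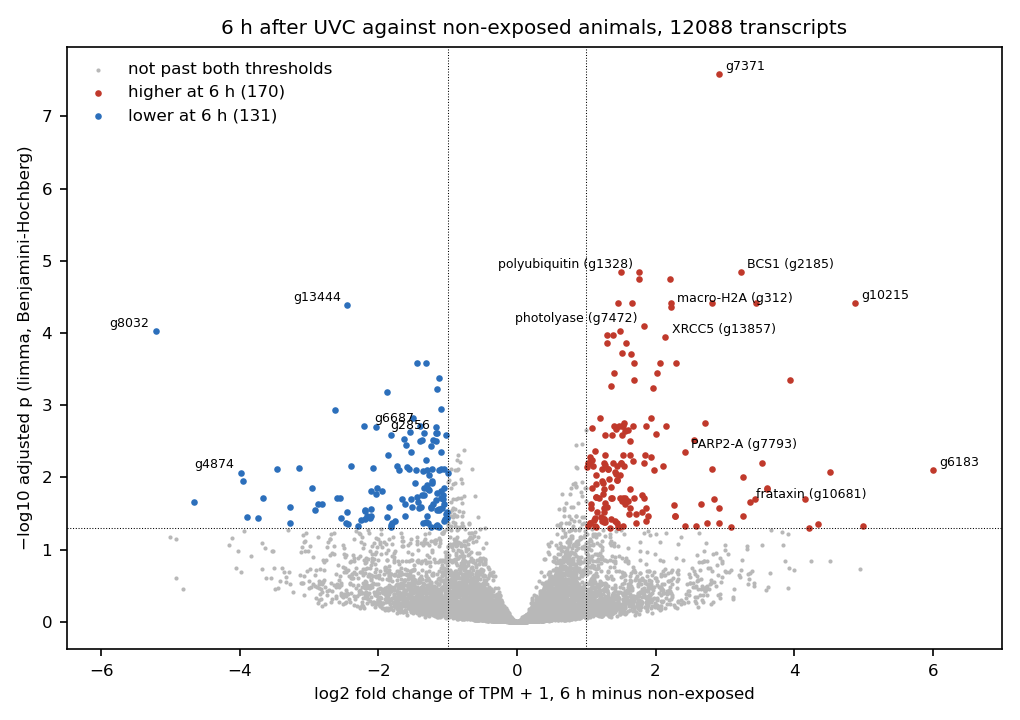
Each point is 1 of the 12088 transcripts, placed by its log2 fold change of TPM + 1 (6 h minus non-exposed, x axis) and the −log10 of its limma adjusted p (y axis), with dotted lines at the thresholds. The 170 transcripts higher at 6 h (red) include named stress genes, and the 131 lower (blue) include g13444 at -2.45 and g2856 at -1.16 on the log2 scale.

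Protein names were taken from matches to Swiss-Prot proteins of other species in the study's tables, which cover 561 of the transcripts tested. Those tables list transcripts that the study called up-regulated at some time in these samples, so the direction of the lists below is not independent evidence. A name was given to 76 of the 170 transcripts that rose and to 2 of the 131 that fell. Over all 561 named transcripts the median log2 fold change was 0.57, and 429 had a positive value. The 76 that rose were 13.5% of them, and each list has to be read against these levels. No member of any of the 19 lists fell past both thresholds.

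Mitochondrial transcripts formed the list with the most members that rose, 13 of 27, with a median log2 fold change of 1.22. BCS1, an AAA protein of the mitochondrial inner membrane that inserts the Rieske iron-sulfur protein into the cytochrome bc1 complex, had 752, 938 and 675 TPM at 6 h, against 93.1, 123 and 48.6 TPM in non-exposed animals (log2 fold change 3.23, SE 0.34, limma adjusted p = 1.42e-05). Each library at 6 h was far above the highest non-exposed library. Frataxin, which takes part in building iron-sulfur clusters, had 80.04, 42.8 and 71.9 TPM at 6 h, against 8.15, 0 and 25.3 TPM in non-exposed animals (log2 fold change 3.36, SE 0.81, limma adjusted p = 0.0223). Its non-exposed libraries were uneven, with replicate 2 listed at 0, and it missed the thresholds without non-exposed replicate 2, 6 h replicate 1 or 6 h replicate 3. The iron-sulfur subunit of succinate dehydrogenase, which passes electrons to ubiquinone, had 518, 596 and 448 TPM at 6 h, against 159, 192 and 171 TPM in non-exposed animals (log2 fold change 1.57, SE 0.21, limma adjusted p = 1.36e-04). Cytochrome c, the electron carrier that also triggers apoptosis when released, had 545, 683 and 524 TPM at 6 h, against 213, 211 and 141 TPM in non-exposed animals (log2 fold change 1.64, SE 0.23, limma adjusted p = 1.94e-04). The groups were far apart for both of these respiratory proteins. The alternative oxidase, which bypasses the later complexes and is absent from vertebrates, had 125, 167 and 136 TPM at 6 h, against 64.6, 44.1 and 43 TPM in non-exposed animals (log2 fold change 1.49, SE 0.32, limma adjusted p = 0.00921). The cofactor enzymes lipoyl synthase g5798 (1.69, adjusted p = 2.59e-04) and the ubiquinone hydroxylase COQ7 g5498 (2.30, adjusted p = 2.59e-04) rose on the same log2 scale by limma. SelO, a mitochondrial pseudokinase that attaches AMP to proteins, averaged 299 ± 62.5 TPM at 6 h and 72.7 ± 14.4 TPM in non-exposed animals (SD, n = 3 each; log2 fold change 2.02, SE 0.30, limma adjusted p = 3.54e-04). The 5 other members that rose had log2 fold changes of 1.25 to 1.97, and GTPase Era g12780, IscA-like g1384 and COX15 g2188 among them were lost without at least 2 of the single libraries. The remaining 14 did not pass, and 5 had a negative log2 fold change, down to -0.88.

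**Figure D2:**
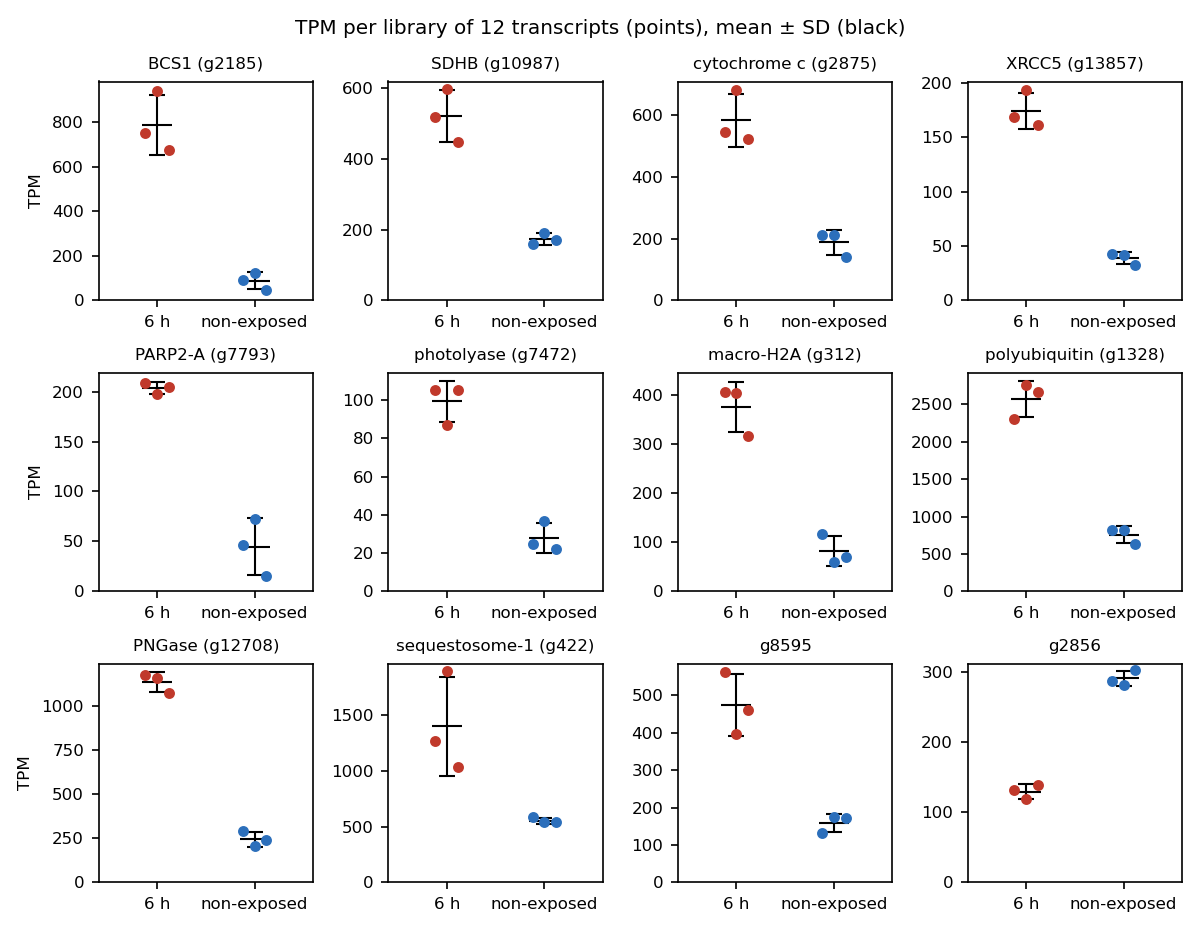
TPM (y axis, from 0) of 12 transcripts in each of the 3 libraries at 6 h (red, left) and the 3 non-exposed libraries (blue, right), with the mean and SD in black. The groups do not overlap in any panel, and g2856 is the panel in which the 6 h libraries are the lower ones, between 118 and 138 TPM.

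DNA repair transcripts rose for 6 of 12 members, with a median log2 fold change of 1.07 and a positive value for 12 of 12. XRCC5, a subunit of the Ku dimer that binds broken DNA ends for non-homologous end joining, had 168, 193 and 161 TPM at 6 h, against 42.5, 41.3 and 32.6 TPM in non-exposed animals (log2 fold change 2.14, SE 0.29, limma adjusted p = 1.13e-04). Another transcript matched to the same protein, g1132, averaged 46 ± 16.5 TPM at 6 h and 31.1 ± 18.6 TPM in non-exposed animals (SD, n = 3 each) and did not pass (limma adjusted p = 0.519). The poly(ADP-ribose) polymerase PARP2-A, which marks breaks with ADP-ribose chains, had 209, 197 and 204 TPM at 6 h, against 46.5, 72.2 and 15 TPM in non-exposed animals (log2 fold change 2.42, SE 0.46, limma adjusted p = 0.00441). Its 3 libraries at 6 h were nearly level, while the non-exposed libraries were spread. PARP3, which adds a single ADP-ribose at breaks, had 115, 103 and 62.1 TPM at 6 h, against 59.1, 11 and 8.46 TPM in non-exposed animals (log2 fold change 2.26, SE 0.55, limma adjusted p = 0.0244). Its call was lost when non-exposed replicate 2 or 3 or 6 h replicate 1 or 2 was left out. The photolyase, which splits pyrimidine dimers with light energy, had 105, 87.1 and 105 TPM at 6 h, against 24.6, 36.8 and 22 TPM in non-exposed animals (log2 fold change 1.83, SE 0.23, limma adjusted p = 7.92e-05). The proliferating cell nuclear antigen g11126, the sliding clamp used in replication and repair synthesis, had 120.4, 94.7 and 97.1 TPM at 6 h, against 42, 22.8 and 22.4 TPM in non-exposed animals (log2 fold change 1.86, SE 0.32, limma adjusted p = 0.00194). The replication protein A subunit g131, which coats single-stranded DNA, had 134, 115 and 132 TPM at 6 h, against 57.6, 61.3 and 58.5 TPM in non-exposed animals (log2 fold change 1.09, SE 0.19, limma adjusted p = 0.00208). Groups did not overlap for any of these 6. UV-damage endonuclease g12984, which cuts beside UV lesions in fungi and bacteria, averaged 67.5 ± 9.23 TPM at 6 h and 39.7 ± 4.95 TPM in non-exposed animals (SD, n = 3 each) and did not pass (limma adjusted p = 0.225).

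Of the 10 histone and deoxynucleotide supply transcripts, macro-H2A alone passed both thresholds. This histone variant, whose macrodomain binds ADP-ribose in vertebrates, had 406, 405 and 316 TPM at 6 h, against 117, 59.9 and 70.8 TPM in non-exposed animals (log2 fold change 2.22, SE 0.27, limma adjusted p = 4.30e-05). The largest log2 fold change of the list, 4.96, belonged to a transcript that did not pass. An unadjusted limma p under 0.05 was reached by 8 of the 10, and the list median was 1.03. The core histones averaged higher but did not pass. Histone H2A g3276 averaged 685 ± 49.5 TPM at 6 h and 392.2 ± 92.5 TPM in non-exposed animals (SD, n = 3 each), with a limma adjusted p of 0.0398 and a log2 fold change of 0.83, under the fold threshold. The most abundant of them, histone H2B g7434, had 1012, 965 and 1393 TPM at 6 h, against 249, 982 and 601 TPM in non-exposed animals, with overlap between the groups.

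Ubiquitin and proteasome transcripts rose for 9 of 31 members, with a median log2 fold change of 0.79. Polyubiquitin, which is cut into ubiquitin monomers, had 2302, 2758 and 2659 TPM at 6 h, against 826, 824 and 627 TPM in non-exposed animals (log2 fold change 1.77, SE 0.19, limma adjusted p = 1.42e-05), and was the DEG with the highest level at 6 h. Peptide N-glycanase, which strips N-glycans from misfolded glycoproteins before their degradation, had 1176, 1157 and 1073 TPM at 6 h, against 288, 205 and 242 TPM in non-exposed animals (log2 fold change 2.22, SE 0.26, limma adjusted p = 3.86e-05). The ubiquitin-binding AN1-type zinc finger protein g9096 averaged 459 ± 42.5 TPM at 6 h and 121 ± 39.3 TPM in non-exposed animals (SD, n = 3 each; log2 fold change 1.96, SE 0.30, limma adjusted p = 5.84e-04). RNF146, a ligase that recognises poly(ADP-ribosyl)ated proteins in mammals, averaged 130.3 ± 14.7 TPM at 6 h and 34.2 ± 8.88 TPM in non-exposed animals (SD, n = 3 each; log2 fold change 1.93, SE 0.32, limma adjusted p = 0.00151). The 5 further members that passed, among them the ubiquitin-conjugating enzyme g7553 (1.23) and the deubiquitinase USP14 g13012 (1.02), were each lost in the leave-one-out fits of at least 3 libraries. For RNF170 g601 the groups overlapped.

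Autophagy transcripts rose for 4 of 5 members, with a median log2 fold change of 1.13. Sequestosome-1, the receptor that carries ubiquitinated cargo to autophagosomes, was matched by 2 transcripts. The more abundant, g422, had 1272, 1895 and 1036 TPM at 6 h, against 584, 539 and 537 TPM in non-exposed animals (log2 fold change 1.29, SE 0.17, limma adjusted p = 1.36e-04). The other, g5512, had 798, 1019 and 673 TPM at 6 h, against 507, 348 and 292 TPM in non-exposed animals (log2 fold change 1.13, SE 0.24, limma adjusted p = 0.00914). It did not pass without non-exposed replicate 3 or 6 h replicate 2. Toll-interacting protein g4910, another ubiquitin-binding receptor, averaged 161 ± 31.4 TPM at 6 h and 72.8 ± 8.92 TPM in non-exposed animals (SD, n = 3 each; log2 fold change 1.13, SE 0.21, limma adjusted p = 0.0043) and was not called without 6 h replicate 3. The kinase ATG1b g12306, which starts autophagosome formation, averaged 47.7 ± 20.04 TPM at 6 h and 21.1 ± 6.21 TPM in non-exposed animals and did not pass (limma adjusted p = 0.0655). In the chaperone list 0 of 6 members passed, with a median log2 fold change of 0.41, and the unadjusted limma p was under 0.05 for 1 of them. BCS1, which rose and which the study names a mitochondrial chaperone, was counted in the mitochondrial list and not in this one.

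Antioxidant transcripts rose for 2 of 16 members, and their median log2 fold change was 0.57, equal to that of all named transcripts at this precision. The thioredoxin domain-containing protein g11396, a small disulfide reductase, had 437, 349.7 and 329.9 TPM at 6 h, against 124, 126 and 134 TPM in non-exposed animals (log2 fold change 1.52, SE 0.21, limma adjusted p = 1.89e-04). Selenium-binding protein g5332, whose human relative oxidises methanethiol, averaged 259.6 ± 36.5 TPM at 6 h and 90.6 ± 9.70 TPM in non-exposed animals (SD, n = 3 each; log2 fold change 1.5, SE 0.16, limma adjusted p = 1.42e-05). The largest log2 fold change of the antioxidant list, 2.70, belonged to a transcript that did not pass. The classical enzymes did not pass. The most abundant, thioredoxin-2 g11519, had 2143, 2184 and 1771 TPM at 6 h, against 886, 954 and 1531 TPM in non-exposed animals (limma adjusted p = 0.0533). The log2 fold changes of the 5 Cu-Zn superoxide dismutases lay between -0.20 and 0.73. Glutathione and detoxification transcripts rose for 5 of 36 members, with a median log2 fold change of 0.58, both close to the levels over all named transcripts (13.5% and 0.57). A flavin-containing monooxygenase, g6002, had 55.1, 56.8 and 43.3 TPM at 6 h, against 14.4, 4.12 and 8.13 TPM in non-exposed animals (log2 fold change 2.55, SE 0.47, limma adjusted p = 0.00307). The sulfotransferase g9014, which conjugates small hydrophobic molecules, had 59.1, 71.5 and 119.8 TPM at 6 h, against 22, 12.9 and 17.9 TPM in non-exposed animals (log2 fold change 2.15, SE 0.37, limma adjusted p = 0.00194). Glutathione S-transferase g4017, the most abundant member, averaged 1919 ± 142 TPM at 6 h and 1259 ± 171 TPM in non-exposed animals (SD, n = 3 each) and did not pass (limma adjusted p = 0.334).

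Heat-soluble proteins, which are tardigrade proteins that stay in solution on boiling and are linked to desiccation tolerance, include a cytosolic (CAHS) and a secretory (SAHS) family. The 4 CAHS transcripts had log2 fold changes of 0.62 to 1.46 and the 5 SAHS transcripts of -0.88 to 1.87. CAHS g7798 had 570.3, 656 and 723 TPM at 6 h, against 167, 288 and 267 TPM in non-exposed animals (log2 fold change 1.46, SE 0.41, limma adjusted p = 0.0494). This call lay just inside the threshold and was lost when any of the 6 libraries was left out and under 5 other settings. The abundant SAHS g1675 had 1088, 1332 and 1775 TPM at 6 h, against 2220.2, 2521 and 2785 TPM in non-exposed animals (log2 fold change -0.87, limma adjusted p = 0.0668), with all 3 libraries at 6 h below the non-exposed ones, without passing. The 8 others of the 9 heat-soluble transcripts did not pass.

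Among regulators, 4 of 17 transcription factors and MAP kinases rose, with a median log2 fold change of 0.76. The largest value of this list, 3.21, belonged to a transcript that did not pass. Forkhead box protein A2 g2246 had 87.7, 87.6 and 45.5 TPM at 6 h, against 26.3, 15.2 and 34.2 TPM in non-exposed animals (log2 fold change 1.52, SE 0.26, limma adjusted p = 0.00194). The others were Krueppel-like factor 11 g7070 (1.54), transcription factor IIB g6862 (1.35) and the stress-activated kinase MAPK12 g13163 (1.10), and the call of g6862 was lost without non-exposed replicate 1 or 2 or 6 h replicate 2 or 3, and that of g13163 without 6 h replicate 2. Splicing and RNA decay transcripts rose for 3 of 12, led by LSm4 g10799, a subunit of the ring that binds U6 snRNA, with 245.2, 321 and 257 TPM at 6 h, against 87.8, 88.4 and 81.4 TPM in non-exposed animals (log2 fold change 1.65, SE 0.20, limma adjusted p = 3.86e-05). Solute carriers and other transporters rose for 4 of 26, a share near the 13.5% of all named transcripts. Few of the translation transcripts with a protein name passed both thresholds. Names came from tables of up-regulated transcripts, so translation transcripts that fell could hardly enter these lists. By limma 0 of 19 ribosomal proteins passed, with a median log2 fold change of 0.09 and 3 with an unadjusted limma p under 0.05. In addition 1 of 20 biogenesis and translation factors, initiation factor 6 g8691 (log2 fold change 1.08, SE 0.24, limma adjusted p = 0.0141), passed with a list median of 0.14, and it was lost without non-exposed replicate 3 or 6 h replicate 1. The lipid carriers (0 of 8) and astacin proteinases (0 of 8) had no DEG, and their medians were -0.14 and 0.62. Their largest log2 fold changes were 0.86 and 3.02.

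**Figure D3:**
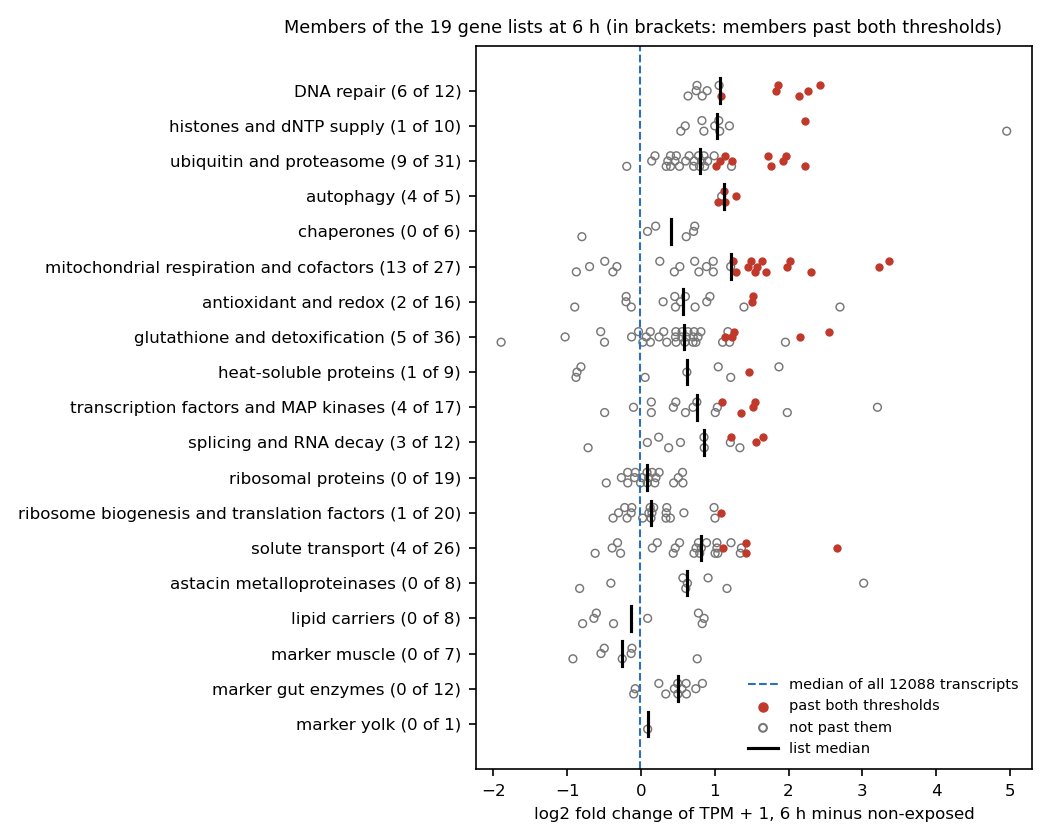
Each point is the log2 fold change (6 h minus non-exposed, x axis) of 1 member of a list (y axis, with the number past both thresholds of the number tested), filled red where it passed both thresholds; black bars mark list medians and the dashed line the median of all transcripts tested, -0.02. The mitochondrial, DNA repair, autophagy and histone lists have the medians farthest to the right, between 1.03 and 1.22, while the ribosomal proteins lie at 0.09.

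Beyond the lists, 23 named transcripts rose, and those below were picked after their values were seen. L-sorbosone dehydrogenase g4636, a name from a bacterial sugar oxidase, had 569, 425 and 431 TPM at 6 h, against 54.5, 51.2 and 104 TPM in non-exposed animals (log2 fold change 2.81, SE 0.33, limma adjusted p = 3.86e-05). Reticulon-4 g2943, a membrane-curving protein of the endoplasmic reticulum, had 1153, 1363 and 1009 TPM at 6 h, against 348, 582 and 356 TPM in non-exposed animals (log2 fold change 1.48, SE 0.19, limma adjusted p = 9.32e-05). The phospholipid-modifying enzyme g2658 (HRAS-like suppressor 3) averaged 525 ± 127 TPM at 6 h and 154 ± 29.8 TPM in non-exposed animals (SD, n = 3 each; log2 fold change 1.75, SE 0.19, limma adjusted p = 1.79e-05). The 2 named transcripts that fell were ectonucleoside triphosphate diphosphohydrolase g6140 and leucine-rich repeat protein g7444. In g6140 the values were 28.9, 20.8 and 1.10 TPM at 6 h, against 84, 65.2 and 48.2 TPM in non-exposed animals (log2 fold change -2.55, SE 0.60, limma adjusted p = 0.0194). In g7444 they were 100.3, 154 and 112 TPM at 6 h, against 275, 259 and 241.05 TPM in non-exposed animals (log2 fold change -1.10, SE 0.26, limma adjusted p = 0.0193). Replicate 3 at 6 h was far under the other 2 for g6140, and without non-exposed replicate 1 or 2 g6140 was not called. The call of g7444 was lost without non-exposed replicate 1 or 2 or 6 h replicate 1 or 3.

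Of the 15 largest rises 14 had no protein name. The 3 transcripts listed at 0 in all 3 non-exposed libraries with the largest fitted rises were g6183 with 61.5, 33.8 and 121 TPM at 6 h, g730 with 38.2, 22.9 and 33.7 TPM at 6 h, and g10215 with 21.3, 36.1 and 29.8 TPM at 6 h (limma adjusted p = 0.00796, 0.0474 and 3.86e-05). The call of g730 was lost when any of the 6 libraries was left out. In all, 7 transcripts that rose were listed at 0 in every non-exposed library, and 9 that fell were listed at 0 in every 6 h library. A value of 0 in a table of estimates does not show absence. The isoform g7269.t3 was among the 7, and its rise was absent when TPM was summed over the 3 isoforms of g7269. Transcripts with large rises and non-exposed values above 0 in at least 2 libraries included g2186, with 72.3, 118 and 67.2 TPM at 6 h, against 2.37, 9.69 and 11.9 TPM in non-exposed animals (log2 fold change 3.44, SE 0.42, limma adjusted p = 3.87e-05). Another was g7906, with 85.2, 74.2 and 80.2 TPM at 6 h, against 0, 19.4 and 13.1 TPM in non-exposed animals (log2 fold change 3.61, SE 0.81, limma adjusted p = 0.0141), a call lost without non-exposed replicate 1 or 6 h replicate 1. The transcript with the smallest adjusted p, g7371, had 742, 879 and 564 TPM at 6 h, against 92.6, 98.7 and 91.7 TPM in non-exposed animals (log2 fold change 2.91, SE 0.21, limma adjusted p = 2.61e-08), and was named after its values were seen. Among the 10 DEGs with the highest levels at 6 h, unnamed ones were g777, g13226, g7647, g9111, g6113 and g3883, all of them above 1000 TPM on average. The call of g13226 was lost without non-exposed replicate 1 or 6 h replicate 2, and that of g6113 when any single library other than non-exposed replicate 2 was left out. Of these g7647 had 1185, 1867 and 859.5 TPM at 6 h, against 139, 189 and 253 TPM in non-exposed animals (log2 fold change 2.71, SE 0.46, limma adjusted p = 0.00176).

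Among falls, g8032 was listed at 0 in all 3 libraries at 6 h, against 35.9, 47.2 and 27.5 TPM in non-exposed animals (limma adjusted p = 9.32e-05). g6015 had 1.56, 1.92 and 0 TPM at 6 h, against 55.2, 56 and 36.9 TPM in non-exposed animals (log2 fold change -4.66, SE 1.12, limma adjusted p = 0.0217). g4874 had 0.150, 0 and 0 TPM at 6 h, against 17, 26.4 and 8.31 TPM in non-exposed animals (log2 fold change -3.99, SE 0.84, limma adjusted p = 0.00861). Falls from higher levels included g8373, with 134, 181 and 158 TPM at 6 h, against 1008, 643 and 884 TPM in non-exposed animals (log2 fold change -2.40, SE 0.49, limma adjusted p = 0.00701). A further one was g13444, with 20.2, 25.3 and 27.6 TPM at 6 h, against 133, 165 and 116 TPM in non-exposed animals (log2 fold change -2.45, SE 0.30, limma adjusted p = 4.07e-05). g13444 and g8373 passed in the fit of the 6 libraries alone, and their groups were far apart. The call of g6015 was lost without 4 of the single libraries, non-exposed replicates 1 and 2 and 6 h replicates 1 and 3. The 15 largest falls had no protein name in the study's tables.

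The genes that the study names by identifier moved in different ways. g2856 had 132, 118 and 138 TPM at 6 h, against 287, 281 and 302 TPM in non-exposed animals (log2 fold change -1.16, SE 0.21, limma adjusted p = 0.00241). It averaged 129 ± 10.02 TPM at 6 h and 290.3 ± 10.9 TPM in non-exposed animals (SD, n = 3 each), with tight libraries in both groups. The study reports g2856 as mis-predicted in its gene set, and what this does to its TPM was not tested. It had picked g2856 from genes up-regulated both after UVC and in slow drying, a choice not limited to 6 h. g8595, from the orthologous group of g241, had 563, 397 and 461 TPM at 6 h, against 132, 173 and 173 TPM in non-exposed animals (log2 fold change 1.56, SE 0.28, limma adjusted p = 0.00227). g241 itself had 308, 172 and 207 TPM at 6 h, against 71.5, 137 and 104 TPM in non-exposed animals and did not pass (log2 fold change 1.14, limma adjusted p = 0.21), although its 3 libraries at 6 h were all above the non-exposed ones. Another member, g7651, had 15.8, 148 and 67.7 TPM at 6 h, against 265, 271 and 570.4 TPM in non-exposed animals, with a limma adjusted p of 0.0592, and the other 5 transcripts of the group tested did not pass. g12777 had 266, 324 and 230.0 TPM at 6 h, against 364, 218 and 227 TPM in non-exposed animals, and its groups overlapped (log2 fold change 0.05, limma adjusted p = 0.973). g243, g244, g245, g246 and g779 did not pass, with log2 fold changes between -1.60 and 0.84.

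Against neighbouring time points of the same course, few transcripts passed the thresholds. By the study's methods, libraries of different times may come from the same exposed set of animals, and the fit treats all libraries as independent. No transcript passed both thresholds between 6 h and 9 h by limma (0.00% of 12088), with 874 at an unadjusted p under 0.05 and a median log2 difference of -0.14 over all transcripts. Between 6 h and 5 h there were 5 DEGs (0.0414%). They were higher at 6 h for g2746, g5622, g7424 and g8547 and lower for g4989, and none was a DEG against non-exposed animals, in which the 4 higher ones averaged between 20.02 and 101 TPM. Between 6 h and 3 h there were 14 DEGs (0.116%), 11 higher and 3 lower, beside a median shift of 0.14 over all transcripts. With libraries scaled to a common median the split was 7 higher and 5 lower. XRCC5 g13857 had 168, 193 and 161 TPM at 6 h, against 31.0, 32.0 and 27.8 TPM at 3 h (log2 difference 2.49, SE 0.29, limma adjusted p = 1.97e-04). PARP2-A g7793 had 209, 197 and 204 TPM at 6 h, against 24.8, 35.1 and 47.6 TPM at 3 h (log2 difference 2.52, SE 0.46, limma adjusted p = 0.0292). macro-H2A g312 and BCS1 g2185 were higher by 1.57 and 1.75 on the log2 scale (limma adjusted p = 0.0219 and 0.0307). Of these 4, XRCC5 passed under each alternative run, and each of the other 3 was lost in at least 5 of the 6 fits with a library left out. BCS1 also did not pass with median scaling (limma adjusted p = 0.0652), nor PARP2-A with quantile normalization (limma adjusted p = 0.0527). BCS1 and macro-H2A averaged 238 and 126 TPM at 3 h, below their 367 and 187 TPM at 2 h.

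Along the course the transcripts that rose at 6 h differed in shape. XRCC5 averaged 174 ± 16.9 TPM at 6 h, 408 ± 59.5 TPM at 9 h and 412.3 ± 117 TPM at 12 h, with 9 h and 12 h within their spread, though the 6 h to 9 h difference did not pass the adjusted threshold. Photolyase and polyubiquitin averaged 99.3 and 2573 TPM at 6 h and were already at 75.8 and 2176 TPM at 2 h. Among the 170 transcripts that rose, the group mean was highest at 6 h for 50, at 9 h for 46 and at 12 h for 40, and among the 131 that fell it was lowest at 6 h for 49. These counts describe transcripts selected at 6 h and compared with the same non-exposed libraries.

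**Figure D4:**
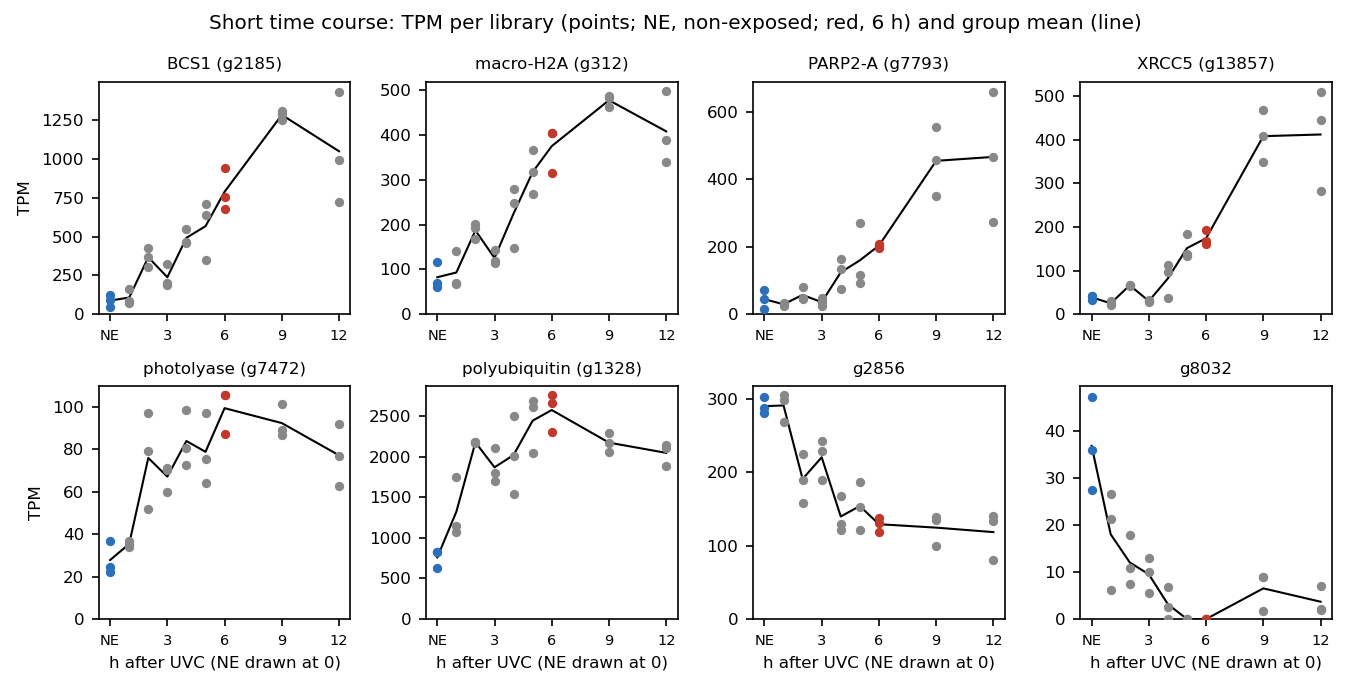
TPM of 8 transcripts in each library (points) against h after UVC on the x axis, with non-exposed animals (NE) drawn at 0 and the line through group means; 6 h is red. XRCC5 and PARP2-A stay below 100 TPM to 3 h and are higher still at 9 h and 12 h, photolyase and polyubiquitin average 75.8 and 2176 TPM at 2 h, and from 4 h on the group means of g2856 and g8032 are at most 154 and 6.54 TPM, against 290.3 and 36.9 TPM in non-exposed animals.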

How the data were processed

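Polyadenylated RNA of whole animals was sequenced. By the study's methods and the submitters' processing notes, reads were demultiplexed with bcl2fastq and checked with FastQC, and the authors quantified them with kallisto against their gene models and deposited transcript-level TPM values for 48 libraries; no build is used here for coordinates. The authors' own tests used counts (BWA and DESeq2), which are not used here, so limma took the place of DESeq2. TPM keeps no depth, so precision was taken from the spread between libraries alone. Each of the 48 columns was matched to its sample, leaving 0.

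log2(TPM + 1) of the 12088 transcripts with a mean of at least 1 TPM over the 48 libraries was fitted with limma 3.58.1 in R 4.3.3 (eBayes with a trend) over the 27 Short libraries and 9 groups, with Benjamini-Hochberg adjustment within each comparison. For a DEG the adjusted p was under 0.05 and the size of the log2 fold change above 1. Summaries used Python 3.11.15 with pandas 2.3.3. An exact permutation test of 3 libraries against 3 cannot go below p = 0.1 and was not used.

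The text names the 15 largest rises and 15 largest falls without overlap of the groups, list members that were DEGs, the most abundant member of each list, the 10 most abundant DEGs, genes the study names with the orthologs of g241, and the largest differences from 5 h and 9 h, in full or as counts. Members and lists were chosen with earlier results of these data known. Alternative fits used no filter or a mean of at least 5 TPM, pseudocounts of 0.1 and 5, the filter over the 2 groups, median and quantile scaling, the replicate number as a block, only the 2 groups in the fit, no fold threshold, robust eBayes, array weights, sums over isoforms, and each library left out. On simulated data for 6 h against non-exposed, with 100 of 12088 transcripts changed by 2 and 100 by 1.5 on the log2 scale, 39 and 25 were called, with 4 false calls.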

Additional observations from a re-analysis of the deposited data

Results flagged for a closer look

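The difference between 6 h and another time point passed the test for 11 of the transcripts named here, 5 against 5 h and 6 against 3 h (limma on log2(TPM + 1), Benjamini-Hochberg adjusted p under 0.05). Against 5 h, g2746 was higher by 4.37 on the log2 scale (29.0, 21.6 and 12.0 TPM at 6 h, listed at 0 in all 3 libraries at 5 h), g7424 by 4.17 (26.5, 23.5 and 7.66 TPM at 6 h, listed at 0 in all 3 at 5 h), g8547 by 4.96 (45.3, 8.18 and 187 TPM at 6 h, against 1.64, 0 and 0 TPM at 5 h) and g5622 by 1.99 (54.6, 51.4 and 70.2 TPM at 6 h, against 21.5, 9.54 and 13.0 TPM at 5 h), while g4989 had a log2 difference of -3.82 (0, 0.739 and 0 TPM at 6 h, against 8.0, 23.9 and 20.9 TPM at 5 h). At 5 h replicate 2 stood apart, with a mean Spearman correlation of 0.789 with the other 5 h libraries and 297 of 7238 abundant transcripts listed at 0. Without it 7 transcripts were called, including g5622, g7424 and g8547 and not g2746 or g4989.

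Against 3 h the log2 differences were 2.49 for XRCC5 g13857, 2.52 for PARP2-A g7793, 1.75 for BCS1 g2185, 1.57 for macro-H2A g312 and 4.32 for g1401, which had 21.4, 34.0 and 18.8 TPM at 6 h, against 0, 0.945 and 0 TPM at 3 h. The log2 difference was -3.33 for g8032, listed at 0 in all 3 libraries at 6 h, against 10.04, 5.50 and 13.0 TPM at 3 h. Where 1 of the groups was at 0 in all libraries (g2746, g7424 and g8032) the fitted difference depends on the pseudocount. With each 6 h or 3 h library left out in turn, g13857 and g1401 passed in all 6 fits, g7793 and g8032 in none, g312 only without 6 h replicate 3 and g2185 only without 3 h replicate 2. Against 5 h, g5622 and g8547 passed in all 6 such fits, g7424 was lost without 6 h replicate 1 or 2, and g2746 and g4989 were lost without 5 h replicate 2 or any of the 6 h libraries.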

How the results depend on the processing

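With only the 2 groups in the fit the 301 DEGs at 6 h became 19, with 12 higher and 7 lower in place of 170 and 131, the 5 against 5 h became 0 and the 14 against 3 h became 1. That fit has 4 residual degrees of freedom among samples. With each library left out in turn the counts were 179 to 261 at 6 h (102 to 152 higher, 77 to 138 lower), 2 to 34 against 5 h, 0 to 1 against 9 h and 4 to 7 against 3 h. The lowest count at 6 h came without 6 h replicate 1, and 34 and 33 against 5 h came without 5 h replicates 1 and 3. Against 5 h there were 2 with a pseudocount of 5. Against 9 h, where the main count was 0, there were 2 without a filter and 1 with the filter over the 2 groups. Against 3 h there were 8 with quantile normalization and 72 with array weights. The causes were not tested. The other settings kept the 6 h count between 287 and 396. With the replicate number as a block it was 287, of which 275 were among the 301, and the count against 5 h was 3. Same-numbered libraries at 6 h and in non-exposed animals had correlations of -0.01, -0.10 and -0.10, so the numbers showed no pairing of these 2 groups. By the study's methods, libraries of different times after exposure may come from the same exposed set of animals. Pairing between those times was not tested. With the block the count was 0 against 9 h and 12 against 3 h. The log2 fold change of g7269.t3 was -0.0727 in sums over isoforms. Of the 91 named transcripts that were DEGs, 81 lost the call with only the 2 groups in the fit, and 21 to 34 did so in the fits with a library left out. With a library left out, DEGs numbered 5 to 6 in DNA repair (6 in the full fit), 10 to 13 in mitochondrial respiration (13), 5 to 8 in ubiquitin and proteasome (9), 2 to 4 in autophagy (4), 2 to 4 in transcription factors and MAP kinases (4), 1 to 3 in splicing (3), 2 to 4 in solute transport (4) and 3 to 4 in detoxification (5). With only the 2 groups in the fit they numbered 1 each in DNA repair, mitochondrial respiration, ubiquitin and splicing, and 0 in the other 4.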

Other observations

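Transcripts with consecutive identifiers rose or fell together in several cases. Identifiers ran in order of position on 10 of 10 scaffolds with at least 3 located transcripts, which held 93 located transcripts. Of 296 tested genes numbered next to a transcript that rose, 16 also rose, 5.41%, where 1.41% of all transcripts did. Of 218 numbered next to one that fell, 4 also fell, 1.83%, where 1.08% did. The 8 pairs that rose were BCS1 g2185 with g2186, macro-H2A g312 with g311, PARP3 g7792 with PARP2-A g7793, Toll-interacting protein g4910 with g4911, the alternative oxidase g11363 with g11364, and g3882 with g3883, g7531 with g7532 and g8250 with g8251. The small alternative oxidase neighbour g11364 had 11.1, 14 and 11.3 TPM at 6 h, against 0.437, 0 and 2.62 TPM in non-exposed animals. The positions of the members of a pair, their overlap, and reads shared between them were not tested.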
